A study of Danio rerio with 6 samples.

Results

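Vitamin A is carried and stored as retinol and its esters, can be made from carotenoids, and is oxidized in steps to retinal and then to retinoic acid. Retinoic acid binds nuclear receptors of the Rar family, which pair with Rxr receptors on DNA and exchange corepressors for coactivators, and Cyp26 enzymes break it down. In the vertebrate embryo this signal patterns the hindbrain and spinal cord and takes part in making motor neurons. The genes described here are those whose symbols name the enzymes, carriers, receptors and coregulators of this pathway. Among 14781 gene symbols, 58 matched the symbol pattern, and 52 of them had at least 10 reads in at least 3 libraries. These 52 comprised 23 enzyme genes, 13 carrier genes, 10 receptor genes, 5 coregulator genes and bcor, a BCL6 corepressor gene that matched by its letters and has no retinoid role.

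RNA of adult zebrafish spinal cord was profiled by bulk RNA-seq in 3 libraries from sham-injured fish and 3 libraries from fish at 1 week after complete transection (1 wpi). The tissue was taken from 2 mm on either side of the lesion. Sham fish were clutchmates whose cord was exposed but left intact. Their treatment label reads uninjured, while their titles read sham. No mutation, transgene or drug is named for either group, the methods give adults of both sexes of the Ekkwill strain for the study as a whole, and the age, sex and number of fish of each single library are not given. The p-values therefore measure the spread between these libraries, which may be technical in part.

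Libraries held 19310220, 21490549 and 24161526 reads in genes for sham replicates 1 to 3 and 30147448, 26681874 and 21926842 for injured replicates 1 to 3, so that 10 reads correspond to 0.351 to 0.494 CPM, the count scaled to a common library size. All levels below are CPM with TMM scaling (edgeR's correction for library composition), are not divided by gene length, and are compared between libraries, not between genes. Sham replicate 1 stood apart from the other sham libraries. It was above all 5 other libraries in 18.4% of the 12804 genes tested and below all of them in 17.2%. Its summed CPM of 17 oocyte markers was 606 against 10.6 to 36.6 elsewhere, and its sum of 12 meningeal and fibroblast markers was 11800 against 3300 and 2550 in the other sham libraries and 10700 to 15600 in the injured ones. Skeletal muscle markers, 13 genes, summed to 25300, 11600 and 8170 CPM in sham replicates 1 to 3. In injured replicates 1 to 3 they summed to 50600, 15300 and 20200 CPM, so the injured libraries differed as well. Neuronal markers were detected in every library, their 10 genes summing to 14800, 24000 and 27100 CPM in sham replicates 1 to 3 and 10800 to 11300 CPM at 1 wpi. Because of sham replicate 1, each retinoid gene named below as called by edgeR with or without that library has both values.

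At 1 wpi, 6 of the 52 retinoid genes passed the edgeR quasi-likelihood test at an adjusted p under 0.05. The isomerase family genes rpe65a, rpe65b and rpe65c, the retinol carrier gene rbp5 and the retinoic acid hydroxylase gene cyp26b1 rose, and the related hydroxylase gene cyp26a1 fell. The other 46 did not pass. Over all 12804 genes tested, 5.81% were called higher and 4.83% lower in injured cords, 10.6% in either direction, against 11.5% of the retinoid genes. The share of retinoid genes called was thus near the background, and the median log2 fold change was 0.01 over the retinoid genes and -0.03 over all genes. By class, 5 of 23 enzyme genes, 1 of 13 carrier genes, 0 of 10 receptor genes and 0 of 5 coregulator genes were called. At an unadjusted p under 0.05 there were 12 enzyme, 3 carrier, 4 receptor and 2 coregulator genes, 21 in all or 40.4%, beside 38.2% of all genes.

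Without sham replicate 1, edgeR called 18 retinoid genes higher and 14 lower, beside 29.0% and 28.2% (57.2% in all) of 12925 genes tested. Limma-voom with sample weights called 18 higher and 16 lower, beside 29.2% and 29.7% (58.9% in all). DESeq2 on all 6 libraries called 12 higher and 4 lower, beside 14.6% and 14.5% (29.2% in all), and its 16 included the 6 above. In either direction together the retinoid shares were 61.5% without sham replicate 1 and 30.8% by DESeq2, both close to the background, while the DESeq2 calls were more often higher than lower, which was not tested. All 6 genes called with every library were also called without sham replicate 1. Leaving out any of the other 5 libraries left 0 genes of any kind called by edgeR, with 11 to 13 retinoid genes at an unadjusted p under 0.05, and the smallest adjusted p of a retinoid gene was then 0.105 to 0.169. DESeq2 kept the 6 genes in all 6 fits that leave out 1 library. In 14 retinoid genes every injured library was above every sham library and in 7 every one was below, 40.4% in all beside 44.7% of all genes, and an exact two-sided permutation test of 3 against 3 libraries cannot give a p under 0.1.

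**Figure D1:**
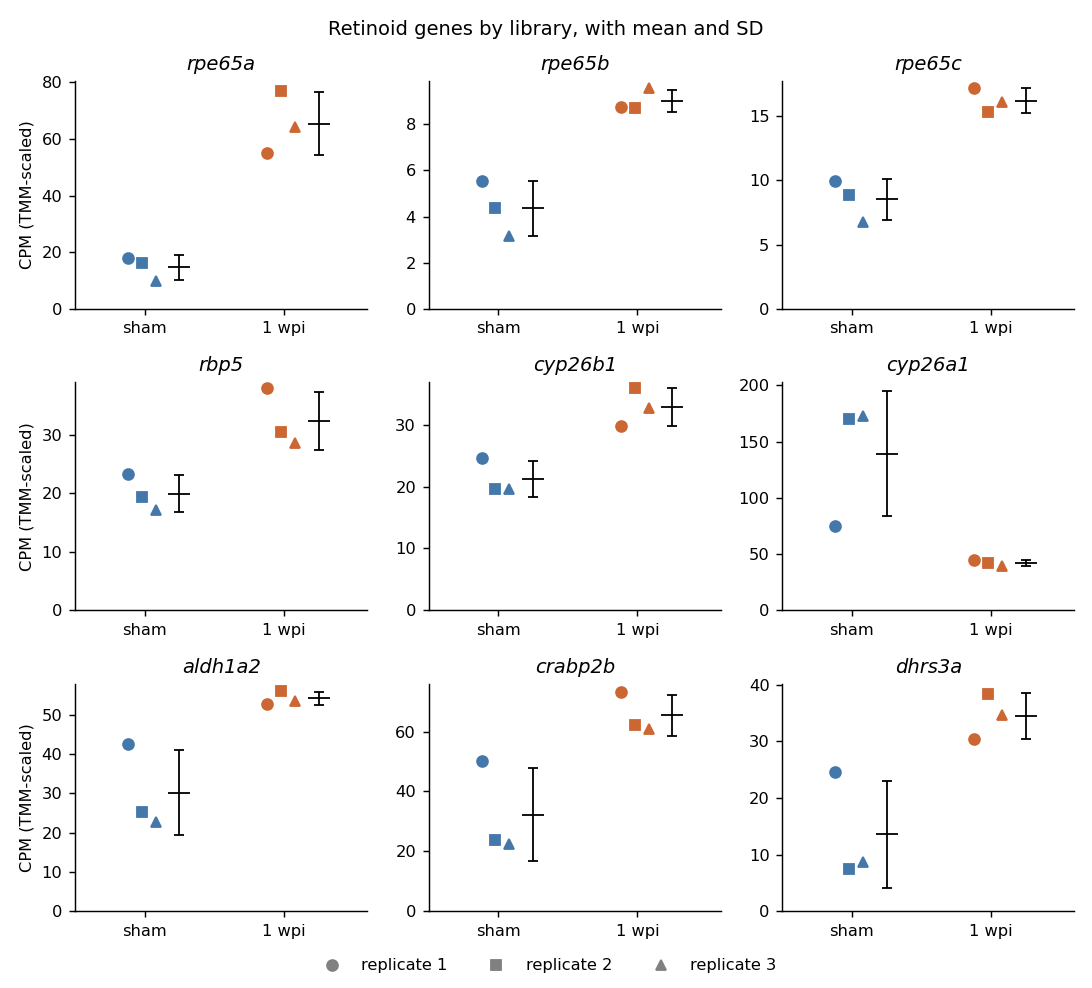
Levels of 9 retinoid genes in CPM (vertical axes, each starting at 0) in the 3 sham and 3 injured (1 wpi) libraries; marker shapes give the replicate number, and the black bar gives the mean and SD of each group. The groups do not overlap in any panel. For cyp26a1, aldh1a2, crabp2b and dhrs3a sham replicate 1 (circle) lies closer to the injured libraries than to the other sham libraries.

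The isomerase and carotenoid cleavage enzymes form 1 protein family. Rpe65 turns retinyl esters into the cis form of retinol in the pigment epithelium of the eye, and Bco enzymes cut carotenoids, Bco1 yielding retinal. In these spinal cords rpe65a measured 18.1, 16.3 and 9.70 CPM in sham replicates 1 to 3 and 55.0, 77.1 and 64.1 CPM in injured replicates 1 to 3. Every injured library was well above every sham library, and sham replicate 1 sat with the other sham libraries. The mean was 4.45-fold higher at 1 wpi, a log2 fold change of 2.15 (SE 0.261, edgeR adjusted p = 0.0281), and 2.34 without sham replicate 1 (adjusted p = 0.000716).

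The paralogs moved the same way by less. For rpe65b the libraries gave 5.53, 4.37 and 3.16 CPM in sham and 8.76, 8.73 and 9.56 CPM at 1 wpi. Those groups did not overlap, and the log2 fold change was 1.05 (SE 0.221, edgeR adjusted p = 0.0430). For rpe65c the sham libraries gave 9.93, 8.87 and 6.78 CPM and the injured ones 17.2, 15.3 and 16.1 CPM, again without overlap, with a log2 fold change of 0.93 (SE 0.162, edgeR adjusted p = 0.0349). Without sham replicate 1 these log2 fold changes were 1.26 and 1.05 (adjusted p = 0.00133 and 0.00126). rpe65b and rpe65c are neighbours in the RefSeq gene order of the GRCz12tu assembly, and the aligned reads were 50 bases long, so reads of these paralogs could have been divided between them or lost to the mapping quality filter. The ratio of rpe65a to rpe65c reads within a library was 1.83, 1.84 and 1.43 in sham and 3.20, 5.02 and 3.99 at 1 wpi, without overlap.

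Photoreceptor markers of the retina were mostly near 0 in the cords, and those of pigment cells were in part detected. The retinal list held no marker of the pigment epithelium, where Rpe65 acts in the eye. Of 12 retinal markers 8 were under 1 CPM in every library, including gnat1, crx and the 5 cone opsin genes of the list, and the summed level of the 12 was 5.04 to 6.50 CPM in sham and 5.42 to 9.85 CPM at 1 wpi. Above 1 CPM in every library were gnat2 (1.82 to 3.76 CPM) and pde6a (1.25 to 2.38 CPM). The rod opsin gene rho was at 2.64 CPM in injured replicate 2 and at most 0.0416 CPM in the other 5 libraries. Of 11 pigment cell markers, dct and slc45a2 were under 1 CPM everywhere, and the sum was 33.9 to 35.3 CPM in sham and 41.2 to 50.5 CPM at 1 wpi. Of 9 pigment cell markers tested 2 rose, beside 5.81% of all genes. They were pmela with a log2 fold change of 1.38 (edgeR adjusted p = 0.0417) and slc45a2 with 1.58 (adjusted p = 0.0393). For pmelb it was -0.29 (adjusted p = 0.382). Without sham replicate 1, pmelb was lower (-0.50, adjusted p = 0.0121), and tyrp1b and mitfa were higher (1.36 and 1.13, adjusted p = 0.00378 and 0.00652). The part of pigment cells in the rpe65 results was not tested. Summed levels of 9 ependymo-radial glia markers were 15900 to 20900 CPM in sham and 22600 to 23500 CPM at 1 wpi. Of these 9 markers 3 rose by edgeR (sox2, foxj1a and vim), beside 5.81% of all genes. In bulk tissue, more cells of a type and more RNA per cell cannot be told apart.

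Among the carotenoid cleavage genes no member passed the edgeR test with all libraries. bco1l, a neighbour of bco1 in the GRCz12tu gene order, measured 2.17, 1.72 and 1.75 CPM in sham and 1.09, 1.04 and 0.910 CPM at 1 wpi. The groups did not overlap, and its log2 fold change was -0.89 (SE 0.218, edgeR adjusted p = 0.0523, DESeq2 adjusted p = 0.0486). It was called without sham replicate 1 (log2 fold change -0.77, adjusted p = 0.0318). bco1 measured 6.42, 6.18 and 4.45 CPM in sham and 6.94, 7.65 and 7.88 CPM at 1 wpi, a log2 fold change of 0.40 (SE 0.180, edgeR adjusted p = 0.157) that became 0.50 without sham replicate 1 (adjusted p = 0.0457). bco2l, of the carotenoid-cleaving Bco2 branch, overlapped between groups with a log2 fold change of -0.09 (SE 0.156). In all, 3 of 6 genes of this family rose, all of them rpe65 genes, beside 5.81% of all genes called higher. The other 3 did not pass. The median log2 fold change of the family was 0.66, beside -0.03 over all genes.

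**Figure D2:**
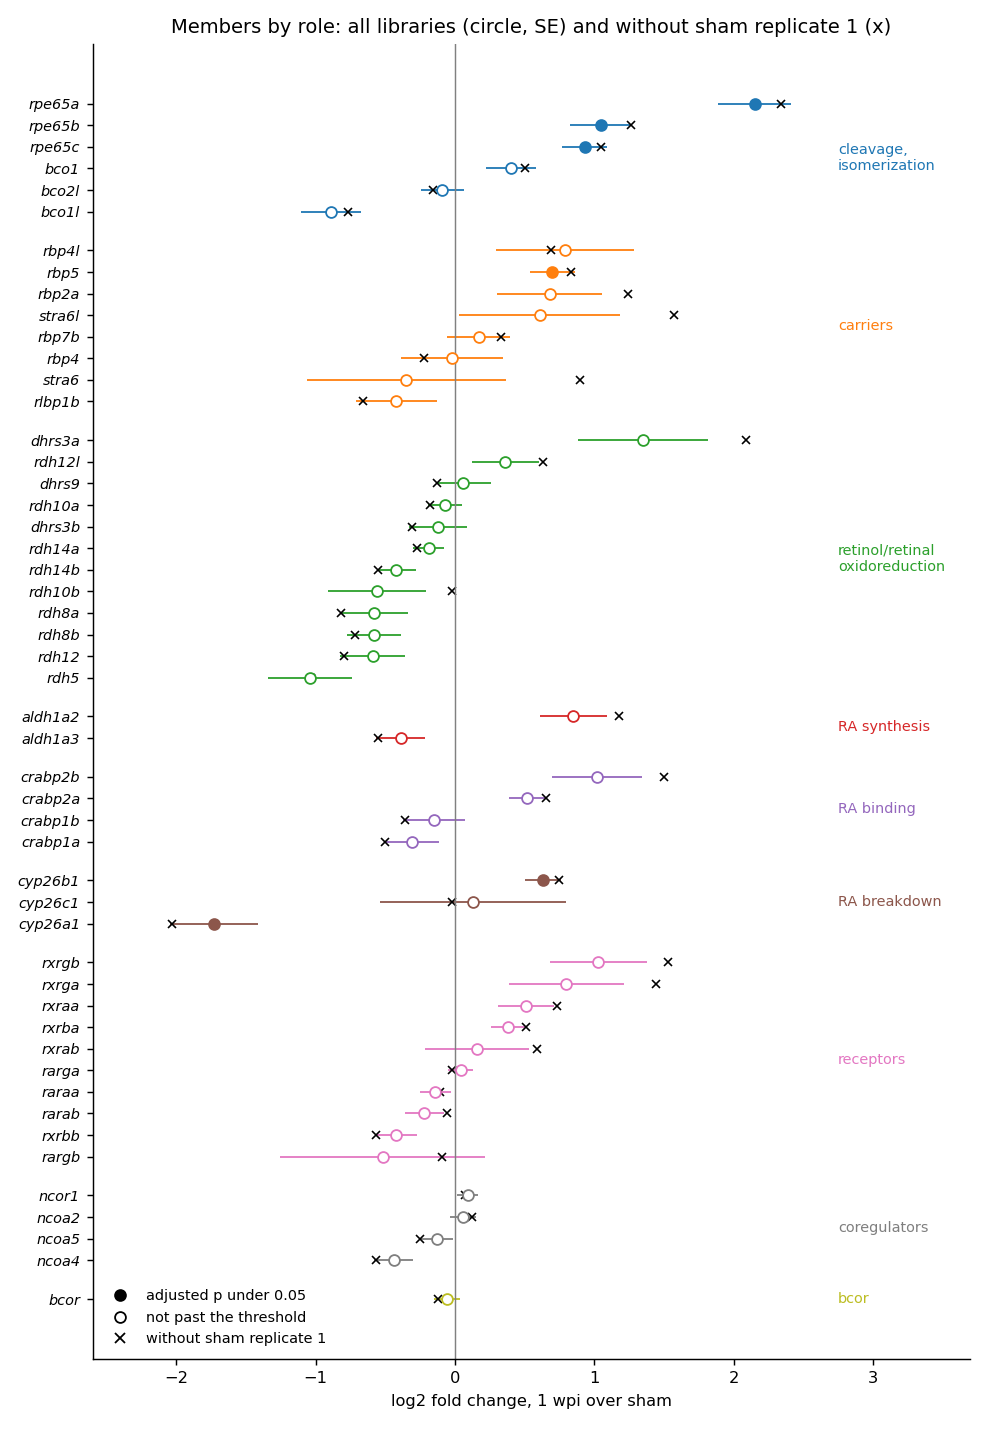
Log2 fold change of injured over sham cords (horizontal axis) for 50 of the 52 retinoid genes grouped by role; circles with bars give the edgeR estimate and its SE from all 6 libraries, filled where the adjusted p is under 0.05, and crosses give the estimate without sham replicate 1. The 6 filled circles are rpe65a, rpe65b, rpe65c, rbp5, cyp26b1 and cyp26a1, and for crabp2b, dhrs3a, rxrga and stra6l the cross lies further to the right than the circle.

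Retinol and retinal are interconverted by short-chain dehydrogenases. Rdh10 oxidizes retinol to retinal, the first oxidation on the way to retinoic acid in the embryo, and Dhrs3 reduces retinal back to retinol. Of 12 genes in this group 0 passed the edgeR test in either direction with all libraries, 5 were under 0.05 before adjustment, and 2 were called by DESeq2. Shares over all genes were 10.6%, 38.2% and 29.2%. Without sham replicate 1, edgeR called 2 higher and 5 lower, a share of 58.3% beside 57.2% of all genes, and the median log2 fold change of the group was -0.30 with all libraries and -0.29 without it.

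dhrs3a, which is induced by retinoic acid in zebrafish embryos, measured 24.5, 7.43 and 8.78 CPM in sham and 30.4, 38.4 and 34.6 CPM at 1 wpi. All injured libraries were above all sham libraries, but sham replicate 1 lay nearer to the injured ones. The log2 fold change was 1.35 (SE 0.464, edgeR adjusted p = 0.0937, DESeq2 adjusted p = 0.0166), and 2.09 without sham replicate 1 (SE 0.135, adjusted p = 0.000145). Its paralog dhrs3b measured 8.70, 15.2 and 12.2 CPM in sham and 11.3, 10.7 and 11.2 CPM at 1 wpi, with overlap and a log2 fold change of -0.12 (SE 0.207), or of -0.31 without sham replicate 1 (SE 0.112, adjusted p = 0.0591).

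The Rdh10 paralogs carried no difference between the groups that passed a test. rdh10a ranged from 68.2 to 90.9 CPM in sham and from 69.4 to 80.6 CPM at 1 wpi, a log2 fold change of -0.07 (SE 0.124). rdh10b measured 61.0 CPM in sham replicate 1 and 25.0 to 26.4 CPM in the other 5 libraries. The log2 fold change of -0.56 (SE 0.351, edgeR adjusted p = 0.280) became -0.02 (SE 0.0557) without that library. Sham replicate 1 was also the library with the oocyte marker sum of 606 CPM, and the part of oocyte RNA in the rdh10b value was not tested.

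Several dehydrogenase genes of the visual cycle were lower at 1 wpi in the comparison without sham replicate 1. rdh8a, whose product reduces retinal in photoreceptors, measured 60.6, 117 and 108 CPM in sham and 63.6, 66.2 and 61.5 CPM at 1 wpi. Sham replicate 1 was below all injured libraries, so the groups overlapped, and the log2 fold change was -0.58 (SE 0.241, edgeR adjusted p = 0.133) or, without that library, -0.82 (SE 0.0558, adjusted p = 0.000163). rdh12, another retinal reductase gene, measured 17.0, 32.8 and 25.4 CPM in sham and 16.9, 15.9 and 17.4 CPM at 1 wpi, for which edgeR gave -0.59 on the log2 scale (adjusted p = 0.124), or -0.80 without sham replicate 1 (adjusted p = 0.00214).

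rdh8b, the second Rdh8 gene, measured 3.41, 4.78 and 4.66 CPM in sham and 2.91, 3.05 and 2.64 CPM at 1 wpi, without overlap. This gave a log2 fold change of -0.58 (SE 0.196, edgeR adjusted p = 0.0906), and -0.72 without sham replicate 1 (adjusted p = 0.00747). rdh14b measured 29.9, 40.6 and 41.4 CPM in sham and 27.2, 28.2 and 28.6 CPM at 1 wpi, also without overlap. That gave a log2 fold change of -0.42 (SE 0.139, edgeR adjusted p = 0.0887, DESeq2 adjusted p = 0.0422), and -0.55 without sham replicate 1 (adjusted p = 0.000487). Its paralog rdh14a had 21.4, 25.0 and 26.3 CPM in sham and 19.8, 21.3 and 22.6 CPM at 1 wpi, with overlap and a log2 fold change of -0.19 (adjusted p = 0.247), or -0.27 without sham replicate 1 (adjusted p = 0.0231).

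The remaining dehydrogenases were mixed. rdh12l measured 15.8, 11.1 and 8.57 CPM in sham and 12.9, 16.5 and 16.1 CPM at 1 wpi, a log2 fold change of 0.36 (edgeR adjusted p = 0.309) or of 0.63 without sham replicate 1 (adjusted p = 0.0190). rdh5, which in mammals encodes a dehydrogenase of cis retinol, stayed under 1 CPM in every library, with 13, 15 and 14 reads in sham and 8, 10 and 6 at 1 wpi. Its log2 fold change of -1.04 (SE 0.300, edgeR adjusted p = 0.0679, DESeq2 adjusted p = 0.179) rests on those few reads. dhrs9 ranged from 20.0 to 31.5 CPM in sham and from 26.6 to 31.7 CPM at 1 wpi.

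Retinal dehydrogenases make retinoic acid in the last oxidation. aldh1a2, the main gene for this step in the embryonic trunk and in the meninges of mammals, measured 42.6, 25.2 and 22.7 CPM in sham and 52.8, 56.1 and 53.6 CPM at 1 wpi. Every injured library was above every sham library, and sham replicate 1 was the nearest to them. The means were 30.2 ± 10.8 CPM in sham and 54.2 ± 1.72 CPM at 1 wpi (SD, n = 3 each), a log2 fold change of 0.85 (SE 0.241, edgeR adjusted p = 0.0667), which DESeq2 called (adjusted p = 0.00840). Without sham replicate 1 the log2 fold change was 1.18 (SE 0.0677, edgeR adjusted p = 0.000114).

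aldh1a3, the other synthesis gene, had the opposite sign. It measured 8.30, 12.2 and 11.8 CPM in sham and 8.27, 7.65 and 8.65 CPM at 1 wpi, so that sham replicate 1 fell within the injured range. In edgeR the log2 fold change was -0.39 (SE 0.176, edgeR adjusted p = 0.153), and -0.55 without that library (SE 0.0931, adjusted p = 0.00376). The read ratio of aldh1a2 to aldh1a3 within a library was 5.13, 2.07 and 1.92 in sham and 6.38, 7.33 and 6.20 at 1 wpi, without overlap.

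In sham replicate 1 the aldh1a2 level was nearer to the injured libraries but below all of them. The sum of the 12 meningeal and fibroblast markers in that library, given above, lay within the injured range. Most of it came from col1a1a, col1a1b and col1a2, at 3530, 3470 and 2900 CPM there, each within the injured range. Below every injured library in sham replicate 1 were dcn, fn1b, pdgfra, foxc1a, foxc1b and tbx18. In the same library lum and postnb lay within the injured range and tcf21 above it. Of the 12 markers 2 rose by edgeR with all libraries, beside 5.81% of all genes. They were dcn, by 0.57 on the log2 scale (adjusted p = 0.0448), and foxc1a, by 0.66 (adjusted p = 0.0430). The level of tcf21 was under 1 CPM in every library. DESeq2 called pdgfra, lum, dcn, fn1b, foxc1a and foxc1b higher, beside 14.6% of all genes. Without sham replicate 1, edgeR called all higher except tbx18 (0.71, adjusted p = 0.176) and tcf21 (-0.52, adjusted p = 0.205), beside 29.0% of all genes. The sum of 10 microglia and macrophage markers was 5400, 2460 and 2450 CPM in sham and 10400 to 11300 CPM at 1 wpi. By edgeR 3 of 10 rose with all libraries, and all 10 without sham replicate 1, beside 5.81% and 29.0% of all genes. The part of either cell type in the aldh1a2 result was not tested.

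Cyp26 enzymes hydroxylate retinoic acid for clearance, and cyp26a1 is also a gene that retinoic acid induces in embryos. cyp26a1 measured 75.0, 170 and 173 CPM in sham and 44.2, 42.2 and 39.5 CPM at 1 wpi. The injured libraries lay close together below all sham libraries, and sham replicate 1 was between the other sham libraries and the injured ones. The means were 139 ± 55.5 CPM in sham and 42.0 ± 2.40 CPM at 1 wpi (SD, n = 3 each), a log2 fold change of -1.73 (SE 0.319, edgeR adjusted p = 0.0379), and -2.03 without sham replicate 1 (SE 0.0585, adjusted p = 3.6e-05). It was the lowest log2 fold change of the 52 genes and the one retinoid gene called lower.

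cyp26b1, the paralog, went the other way. It measured 24.6, 19.6 and 19.6 CPM in sham and 29.8, 36.0 and 32.7 CPM at 1 wpi. The groups did not overlap, and the log2 fold change was 0.63 (SE 0.130, edgeR adjusted p = 0.0426), or 0.75 without sham replicate 1 (adjusted p = 0.00114). cyp26c1, the last member of the family, had 6 to 32 reads in a library, 0.273 to 1.19 CPM, and a log2 fold change of 0.13 (SE 0.670), so a difference could not be detected at this depth.

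The opposite directions within the Cyp26 family can also be given as the ratio of their reads, which does not depend on the scaling of the libraries. Reads of cyp26a1 over those of cyp26b1 were 3.06, 8.63 and 8.83 in sham and 1.48, 1.17 and 1.21 at 1 wpi. Reads of aldh1a2 over those of cyp26a1, a synthesis gene against a breakdown gene, were 0.567, 0.148 and 0.132 in sham and 1.19, 1.33 and 1.36 at 1 wpi. Neither ratio overlapped between the groups, which follows from the levels above, as the genes of each pair moved apart without overlap. Of 16 such ratios computed, chosen after the values were seen, 6 were higher and 2 lower in every injured library than in every sham library, and 8 overlapped. The share of other gene pairs without overlap was not computed.

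The summed level of the neuronal markers, given above, was lower in all injured libraries than in all sham libraries, with sham replicate 1 between, and most of that sum came from nefma, nefmb and snap25a. Of the 10 markers 8 did not pass the edgeR test with all libraries, among them slc17a6b with a log2 fold change of 0.18 and elavl3 with -0.11. The 2 that passed were both lower, beside 4.83% of all genes called lower. They were snap25a with a log2 fold change of -1.31 (edgeR adjusted p = 0.0436) and nefmb with -1.84 (adjusted p = 0.0294). DESeq2 also called nefma, gad1b and gad2 lower, beside 14.5% of all genes. Without sham replicate 1, only slc17a6b (0.07, edgeR adjusted p = 0.585) and elavl3 (-0.17, adjusted p = 0.103) did not pass. The other markers were called lower there, gad2 for example with -0.97 (adjusted p = 9.67e-05), beside 28.2% of all genes called lower. The part of neurons in the cyp26a1 result was not tested.

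**Figure D3:**
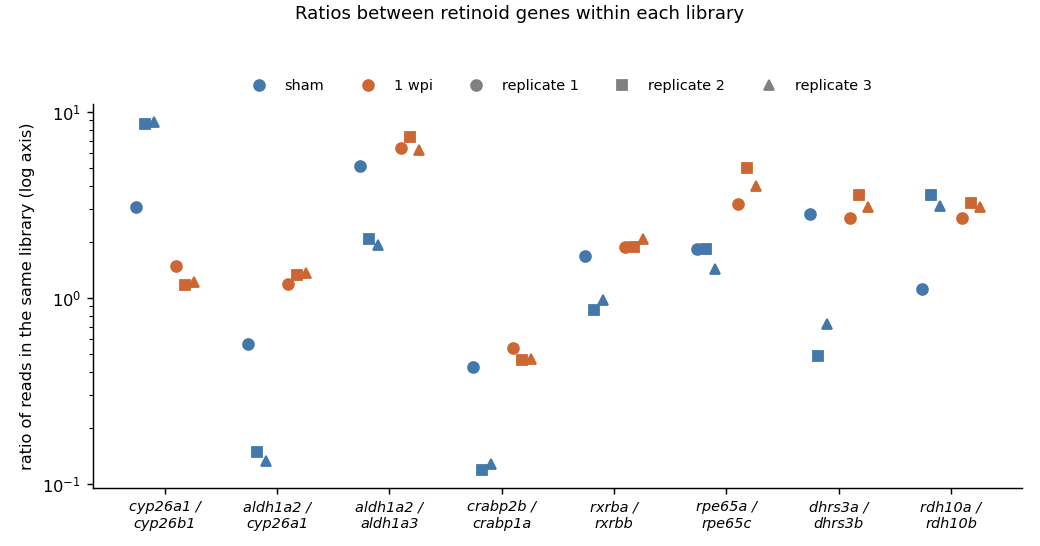
Ratio of the reads of 2 retinoid genes within each library (vertical axis, log scale) for selected gene pairs, with sham libraries in blue and injured (1 wpi) libraries in orange; marker shapes give the replicate number. The cyp26a1 to cyp26b1 ratio is 3.06 to 8.83 in sham and 1.17 to 1.48 at 1 wpi, and for the dhrs3a to dhrs3b and rdh10a to rdh10b pairs sham replicate 1 (circle) is apart from the other sham libraries.

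Retinol carriers and receptors for uptake gave 1 called gene among 9, a share of 11.1% beside 10.6% of all genes. rbp5, a cellular retinol-binding protein gene, measured 23.3, 19.3 and 17.1 CPM in sham and 37.9, 30.4 and 28.6 CPM at 1 wpi. Injured libraries were all above sham libraries, and its log2 fold change was 0.70 (SE 0.163, edgeR adjusted p = 0.0478), or 0.83 without sham replicate 1 (adjusted p = 0.00361). The call lies at the threshold, since the adjusted p was 0.0503 with upper-quartile scaling and 0.0510 with no filter on low counts. DESeq2 gave an adjusted p of 0.00240.

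Another cellular carrier, rbp2a, measured 11.1, 4.74 and 4.45 CPM in sham and 12.1, 10.9 and 9.60 CPM at 1 wpi. Sham replicate 1 lay within the injured range, and the log2 fold change was 0.68 (SE 0.376, edgeR adjusted p = 0.225) with it and 1.24 (SE 0.134, adjusted p = 0.000704) without it. rbp7b ranged from 1.75 to 2.57 CPM in sham and from 2.21 to 2.71 CPM at 1 wpi.

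The plasma carrier gene rbp4, whose product brings retinol from the liver, measured 86.0, 203 and 83.7 CPM in sham and 123, 139 and 104 CPM at 1 wpi. Sham replicate 2 was the highest of all libraries and the other sham libraries the lowest. The log2 fold change was -0.02 (SE 0.367), and 0.53 without sham replicate 2 (edgeR adjusted p = 0.136, DESeq2 adjusted p = 0.0180). Its relative rbp4l had 7 to 29 reads in a library and a log2 fold change of 0.79 (SE 0.495). ttr, which carries Rbp4 in plasma, had 0 to 4 reads in a library and was under the read rule. The 10 liver markers summed to 31.0, 18.1 and 38.7 CPM in sham replicates 1 to 3 and 24.6 to 61.5 CPM at 1 wpi. Sums of 8 epidermal markers, picked out after their values were seen, were 234, 1050 and 391 CPM in sham replicates 1 to 3. In injured replicates 1 to 3 they were 144, 890 and 164 CPM. The part of either tissue in the rbp4 values was not tested.

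Both Rbp4 receptor genes were high in sham replicate 1. stra6 measured 5.39, 1.35 and 0.749 CPM in sham and 1.54, 2.04 and 2.28 CPM at 1 wpi, and its log2 fold change changed sign from -0.35 (SE 0.715) to 0.90 (SE 0.345, edgeR adjusted p = 0.0676) without that library. stra6l measured 4.30, 0.882 and 1.33 CPM in sham and 3.44, 3.46 and 3.05 CPM at 1 wpi. Its log2 fold change was 0.61 (SE 0.578, edgeR adjusted p = 0.458), or 1.57 without sham replicate 1 (SE 0.245, adjusted p = 0.00273). rlbp1b, a retinal carrier gene of Müller glia in the zebrafish eye, measured 1.58, 2.93 and 3.00 CPM in sham and 1.89, 1.97 and 1.73 CPM at 1 wpi, a log2 fold change of -0.42 (adjusted p = 0.315) or, without sham replicate 1, -0.66 (adjusted p = 0.0226).

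Carriers of retinoic acid itself, the Crabp proteins, gave 0 called genes of 4 with all libraries by edgeR, 2 with an unadjusted p under 0.05, and 2 by DESeq2. Over all genes these shares were 10.6%, 38.2% and 29.2%. crabp2b, of the Crabp2 branch that delivers retinoic acid to the nucleus in mammals, measured 50.1, 23.8 and 22.6 CPM in sham and 73.2, 62.1 and 60.9 CPM at 1 wpi. No overlap was seen between groups. With all libraries its log2 fold change was 1.02 (SE 0.322, edgeR adjusted p = 0.0787, DESeq2 adjusted p = 0.0118), and 1.50 without sham replicate 1 (SE 0.0992, adjusted p = 0.000154). crabp2a measured 13.2, 10.8 and 9.91 CPM in sham and 16.8, 15.6 and 16.2 CPM at 1 wpi, also without overlap, a log2 fold change of 0.52 (SE 0.133, edgeR adjusted p = 0.0563, DESeq2 adjusted p = 0.0109) or of 0.65 without that library (adjusted p = 0.00119).

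The Crabp1 genes had the other sign. crabp1a measured 118, 202 and 178 CPM in sham and 137, 135 and 131 CPM at 1 wpi, with sham replicate 1 below all injured libraries. With all libraries the log2 fold change was -0.31 (SE 0.194, edgeR adjusted p = 0.281), or -0.50 without that library (SE 0.0658, adjusted p = 0.00140). crabp1b measured 22.0, 39.9 and 34.6 CPM in sham and 25.8, 30.7 and 30.4 CPM at 1 wpi, a log2 fold change of -0.15 (adjusted p = 0.634) or of -0.36 without sham replicate 1 (adjusted p = 0.0264). The read ratio of crabp2b to crabp1a was 0.426, 0.118 and 0.127 in sham and 0.536, 0.461 and 0.466 at 1 wpi, without overlap.

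Of the 4 genes for the retinoic acid receptors themselves, 0 passed a test. rarga measured 25.9, 29.9 and 29.1 CPM in sham and 29.4, 28.5 and 29.2 CPM at 1 wpi, a log2 fold change of 0.04 (SE 0.0875, edgeR adjusted p = 0.768). raraa ranged from 8.69 to 9.82 CPM in sham and from 8.36 to 8.94 CPM at 1 wpi, with a log2 fold change of -0.14 (SE 0.113, adjusted p = 0.390). rarab ranged from 21.1 to 28.6 CPM in sham and from 20.1 to 20.8 CPM at 1 wpi, with a log2 fold change of -0.22 (SE 0.138, adjusted p = 0.279) that was -0.06 (SE 0.0585) without sham replicate 1. rargb had 3 to 16 reads in a library and a log2 fold change of -0.52 (SE 0.733), too few for a difference to be detected. None of these 4 passed in edgeR with all libraries, in edgeR without sham replicate 1 or in DESeq2. Over all genes the shares called were 10.6%, 57.2% and 29.2%.

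Among the 6 Rxr genes, the partners of Rar and of other nuclear receptors, 0 passed the edgeR test with all libraries, 4 were under 0.05 before adjustment, and 2 were called by DESeq2. The shares of all genes were 10.6%, 38.2% and 29.2%. rxrgb measured 7.11, 3.11 and 3.25 CPM in sham and 8.20, 10.1 and 9.20 CPM at 1 wpi. The groups did not overlap, with a log2 fold change of 1.03 (SE 0.348, edgeR adjusted p = 0.0907, DESeq2 adjusted p = 0.0315), or of 1.53 without sham replicate 1 (adjusted p = 0.000367). rxrga, its paralog, measured 8.89, 3.20 and 3.45 CPM in sham and 8.10, 9.96 and 9.01 CPM at 1 wpi. Sham replicate 1 fell within the injured range, and the log2 fold change was 0.80 (SE 0.415, edgeR adjusted p = 0.203) with it and 1.44 (SE 0.138, adjusted p = 0.000465) without it.

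The Rxrb paralogs had fold changes of opposite sign, neither past the edgeR threshold with all libraries. rxrba measured 60.4, 43.8 and 49.5 CPM in sham and 65.9, 65.3 and 68.8 CPM at 1 wpi, a log2 fold change of 0.38 (SE 0.124, edgeR adjusted p = 0.0843, DESeq2 adjusted p = 0.0408). rxrbb measured 36.1, 51.1 and 51.2 CPM in sham and 35.0, 34.9 and 33.2 CPM at 1 wpi, a log2 fold change of -0.42 (SE 0.148, edgeR adjusted p = 0.0962, DESeq2 adjusted p = 0.0501). Neither gene overlapped between groups, and without sham replicate 1 the log2 fold changes were 0.51 (adjusted p = 0.00146) and -0.57 (adjusted p = 0.000371). Reads of rxrba over those of rxrbb were 1.68, 0.857 and 0.967 in sham and 1.88, 1.87 and 2.07 at 1 wpi.

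rxraa measured 12.4, 8.13 and 8.53 CPM in sham and 13.3, 15.6 and 12.5 CPM at 1 wpi. The lowest injured library was just above sham replicate 1, and the log2 fold change was 0.51 (SE 0.198, edgeR adjusted p = 0.116), or 0.73 without that library (adjusted p = 0.00361). rxrab ranged from 0.708 to 1.63 CPM in sham and from 1.00 to 1.40 CPM at 1 wpi.

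Coregulators are shared by many nuclear receptors. ncor1, a corepressor gene, ranged from 237 to 260 CPM in sham and from 249 to 268 CPM at 1 wpi, with a log2 fold change of 0.09 (SE 0.0788).

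ncoa4, known in mammals as the receptor that takes ferritin to the lysosome, measured 123, 169 and 164 CPM in sham and 124, 109 and 104 CPM at 1 wpi. Sham replicate 1 overlapped the injured libraries, and the log2 fold change was -0.44 (SE 0.142, edgeR adjusted p = 0.0837, DESeq2 adjusted p = 0.0285), or -0.57 without it (adjusted p = 0.00190). ncoa5 measured 89.8, 117 and 119 CPM in sham and 97.8, 100 and 100 CPM at 1 wpi, with a log2 fold change of -0.13 (adjusted p = 0.448) that was -0.25 (adjusted p = 0.00359) without sham replicate 1. ncoa2, a coactivator gene, and bcor had log2 fold changes of 0.06 (SE 0.0926) and -0.06 (SE 0.0941).

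**Figure D4:**
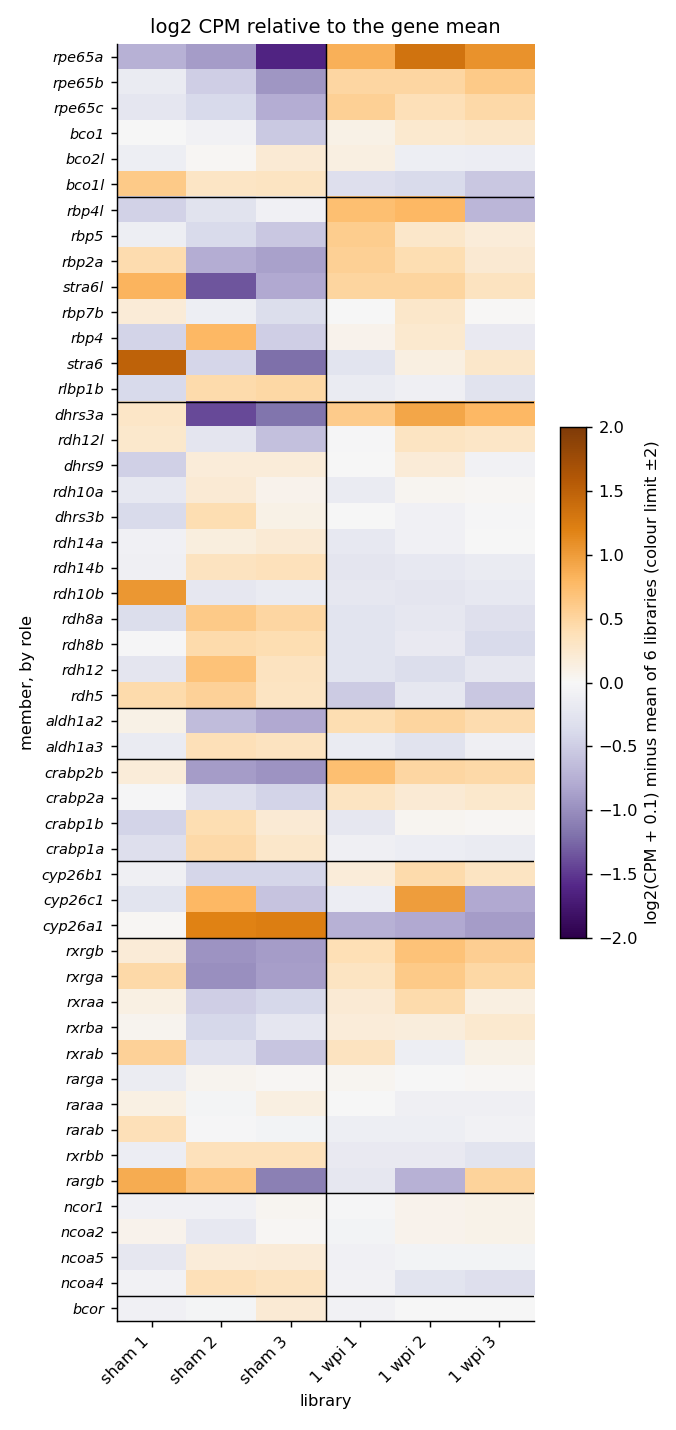
Log2 of CPM plus 0.1 relative to the mean over the 6 libraries (colour, limited to ±2) for 50 of the 52 retinoid genes (rows, by role) in each library (columns). In many genes sham replicate 1 (first column) has the colour of the injured libraries, as for dhrs3a with 24.5 CPM against 7.43 and 8.78 CPM in the other sham libraries.

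The place of sham replicate 1 was measured in log2 of CPM plus 0.1. On this scale 0 was set at the mean of the other sham libraries and 1 at the mean of the injured ones. Over the 32 retinoid genes called without it, its median position was 0.76, and it lay between the means in 23 of them. Over the 6 genes called with all libraries its median position was 0.44, and over the 26 called only without it, 0.85. Both sets were divided by calls that depend on sham replicate 1, so a difference between them follows from the division. Of all 52 genes it was above every other library in 8 and below every other library in 11, which is 15.4% and 21.2%, beside the 18.4% and 17.2% of all genes given above. The sign of the fold change was the same in every fit for 40 of the 52 genes.

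Genes under the read rule were bco2a, lrata, rbp2b, rdh1, rlbp1a and ttr. bco2a came closest, with 4, 7 and 6 reads in sham and 15, 16 and 7 at 1 wpi. lrata, for the enzyme that stores retinol as esters, had 1 to 9 reads in a library. Just inside the rule were cyp26c1 and rargb, each with at least 10 reads in exactly 3 libraries.

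Other genes that handle retinoids, taken from a list outside the symbol pattern, gave 2 called higher and 0 lower of 22 tested, beside 5.81% and 4.83% of all genes. The other 20 did not pass, and the median log2 fold change of the list was 0.09. sdr16c5b, a relative of an epithelial retinol dehydrogenase gene of mammals, measured 56.1, 58.2 and 57.1 CPM in sham and 84.0, 93.4 and 94.3 CPM at 1 wpi. All 3 sham libraries were level there, sham replicate 1 included, and the log2 fold change was 0.66 (SE 0.0700, edgeR adjusted p = 0.0281), or 0.65 without sham replicate 1 (adjusted p = 0.000551). rgrb, a retinal-binding opsin gene, measured 5.29, 4.74 and 4.58 CPM in sham and 9.11, 8.92 and 8.06 CPM at 1 wpi, a log2 fold change of 0.84 (SE 0.131, adjusted p = 0.0320), or of 0.90 without that library (adjusted p = 0.00115). Its relative rgra had the other sign, -0.76 (edgeR adjusted p = 0.0935, DESeq2 adjusted p = 0.0439), or -0.96 without sham replicate 1 (edgeR adjusted p = 0.00579). Before adjustment 6 of the list were higher and 2 lower at p under 0.05, beside 38.2% of all genes in either direction. DESeq2 called 5 higher and 1 lower, beside 29.2% of all genes. Without sham replicate 1 edgeR called 8 higher and 3 lower, beside 57.2% of all genes.

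cyp27c1, picked out after its values were seen, encodes the enzyme that converts vitamin A1 to vitamin A2 in the zebrafish eye. It measured 185, 75.9 and 66.0 CPM in sham and 266, 289 and 287 CPM at 1 wpi. The groups did not overlap, and the log2 fold change was 1.37 (SE 0.400, edgeR adjusted p = 0.0695, DESeq2 adjusted p = 0.00319), or 1.99 without sham replicate 1 (adjusted p = 6.29e-05). retsatl and scarb1, likewise picked out afterwards, were high in sham replicate 1, retsatl with 130 CPM against 0.245 to 4.83 CPM elsewhere and scarb1, a scavenger receptor gene for carotenoid uptake, with 53.2 CPM against 9.10 to 12.7 CPM.

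Tested were 34 genes known to respond to retinoic acid in embryos, mostly hox, meis and nr2f genes. Of these, 2 were called higher and 1 lower, beside 5.81% and 4.83% of all genes. The median log2 fold change of the list was -0.36 beside -0.03 over all genes. Before adjustment 3 were higher and 11 lower at p under 0.05, beside 38.2% of all genes in either direction. nr2f5, an orphan nuclear receptor gene, measured 10.4, 3.90 and 5.24 CPM in sham and 21.4, 21.8 and 21.0 CPM at 1 wpi, without overlap. All injured libraries were at about the same level, and the log2 fold change was 1.72 (SE 0.355, edgeR adjusted p = 0.0425), or 2.22 without sham replicate 1 (adjusted p = 0.000123). meis1a, a homeobox gene whose product is a Hox cofactor, rose from 26.3, 26.4 and 24.1 CPM to 37.4, 36.5 and 38.0 CPM, a log2 fold change of 0.54 (SE 0.0787, adjusted p = 0.0301), or of 0.56 without that library (adjusted p = 0.000827). The listed relatives meis1b, meis2a, meis2b, nr2f1a and nr2f2 had the other sign and did not pass by edgeR with all libraries. Without sham replicate 1 each was called lower, from -0.39 for nr2f1a (adjusted p = 0.00118) to -0.87 for meis2b (adjusted p = 0.000744).

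hoxd4a, a homeobox gene of the hindbrain and anterior cord, was the one called lower, with 5.19, 7.11 and 6.99 CPM in sham and 3.89, 3.94 and 3.41 CPM at 1 wpi. Its log2 fold change was -0.78 (SE 0.181, edgeR adjusted p = 0.0484), and -0.91 without sham replicate 1 (adjusted p = 0.00174). For the whole list the calls without sham replicate 1 were 4 higher and 23 lower with a median log2 fold change of -0.49, beside 29.0% and 28.2% of all genes, while DESeq2 with all libraries called 3 higher and 6 lower, beside 14.6% and 14.5%. The summed neuronal markers were lower in the injured libraries. Of the 10, edgeR called 2 lower with all libraries, and all but elavl3 and slc17a6b lower without sham replicate 1, beside 4.83% and 28.2% of all genes. Their part in these values was not tested.

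Other nuclear receptors that pair with Rxr, and subunits of the cofactor complexes, gave 0 called higher and 1 lower of 21 tested, beside 5.81% and 4.83% of all genes. The median log2 fold change of the list was -0.09. Before adjustment 2 were higher and 6 lower at p under 0.05, beside 38.2% of all genes in either direction. DESeq2 called 2 and 4, beside 29.2% of all genes. Without sham replicate 1 edgeR called 3 higher and 5 lower, beside 57.2% of all genes. vdrb, a vitamin D receptor gene, measured 6.08, 5.16 and 4.62 CPM in sham and 1.23, 0.892 and 1.91 CPM at 1 wpi. All sham libraries were above all injured ones and sham replicate 1 was with its group, giving a log2 fold change of -1.98 (SE 0.315, edgeR adjusted p = 0.0334) and -1.87 without it (adjusted p = 0.00377).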

How the data were processed

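Total RNA of 6 spinal cord samples, 3 per group, was made into TruSeq libraries and sequenced as single reads of 50 bases. The authors aligned reads to danRer10 with TopHat2 (2.2.1 in the submitters' processing notes, another version in the methods), kept alignments above a mapping quality of 30 with SAMtools 1.3.1 and counted with HTSeq 0.6.0. Trim Galore and DESeq2 1.26.0 are also in the submitters' notes. The deposited values are raw counts, whole reads per gene symbol. For the annotation and strand setting the sources used here give nothing, so reads of a gene and of an antisense neighbour could be mixed. The 5 rows of uncounted reads in each file were left out. They include reads outside genes, 43.8% of the total in sham replicate 1, 50.9% and 51.3% in the other sham libraries and 41.2% to 42.1% in injured libraries.

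Groups came from the labels. Counts were tested with edgeR 4.0.16 (R 4.3.3): TMM scaling, filterByExpr with a minimum count of 10 and minimum total of 15, the quasi-likelihood test with injury as the only term, and Benjamini-Hochberg adjustment over all 12804 genes tested, threshold 0.05. The SE of a log2 fold change is its size divided by the root of the F statistic. Alternatives were DESeq2 1.42.0, limma 3.58.1 (voom with sample weights), other scalings and filters, a replicate block and leaving out each library. Replicates of a group differed by more than sampling noise (chi-square per degree of freedom 11.8 to 167). Counts were also simulated over 12804 genes, with a small share of genes changed and no library set apart as sham replicate 1 was. There edgeR recovered 43% of genes changed 2-fold and 84% of those changed 4-fold, with 4 false calls among 131. DESeq2 recovered 65% and 90%, with 57 false among 212. Since the data differ in both respects, these rates may not hold for them. The members, marker lists and other gene lists were chosen with earlier results of these data known. Named with values in every library were members called by the main test, by DESeq2 or by edgeR with a library left out, the highest member of each role, and the called genes of the other lists; other names were added after their values were seen. The values of 2 members are not reported here, and they are counted in the totals only. No genome, promoter or protein sequence was used here.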

Additional observations from a re-analysis of the deposited data

How the results depend on the processing

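The 6 retinoid calls depended on the libraries and the test. With DESeq2 the counts of retinoid genes called were 12 higher and 4 lower (all genes 1894 and 1886), and with limma-voom and sample weights 18 and 16 (all genes 3740 and 3805), where sham replicate 1 had a weight of 0.0949. Leaving out 1 library gave 0 to 18 retinoid genes higher and 0 to 14 lower by edgeR and 6 to 17 higher and 1 to 12 lower by DESeq2. For all genes these ranges were 0 to 3750 and 0 to 3647 by edgeR and 882 to 3642 and 786 to 3395 by DESeq2 (932 lower without sham replicate 2, 929 without sham replicate 3). The upper ends came without sham replicate 1, and the 0 values without any other library. Requiring 10 reads in every library gave 2 retinoid genes lower, bco1l being added. With a replicate block 0 retinoid genes and 0 genes in all were called in either direction, with 18 retinoid genes at an unadjusted p under 0.05. Samples of the same number did not deviate together (correlations -0.165, -0.0264 and 0.0671), so the numbers were not taken to pair samples. The other scalings and filters kept each count within 1.5 times, and the median log2 fold change of all genes was -0.03 under each scaling.

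Of the log2 fold changes of single genes under an alternative, 850 kept their sign and side of the threshold, 93 newly passed, 38 no longer passed and 37 changed sign. The sign changes were in 12 genes, none of them called with all libraries by edgeR. Under limma-voom cyp26c1 gave -0.13, dhrs9 -0.09, rarga -0.03 and stra6 0.78, and under the block rbp4 gave 0.10 and stra6 0.11. Leaving out 1 library, the edgeR values ran from -0.18 to 0.01 for bco2l, -0.12 to 0.04 for bcor, -0.36 to 0.03 for crabp1b, -0.62 to 0.76 for cyp26c1, -0.31 to 0.08 for dhrs3b, -0.13 to 0.16 for dhrs9, -0.02 to 0.12 for ncoa2, -0.02 to 0.08 for rarga, -0.24 to 0.53 for rbp4, -0.18 to 0.03 for rdh10a, -0.07 to 0.59 for rxrab and -0.78 to 0.90 for stra6. With DESeq2 the values of changed sign that had an adjusted p were 0.01 for bco2l, 0.04 for bcor, 0.03 for crabp1b, -0.04 and -0.16 for cyp26c1, 0.08 for dhrs3b, -0.02 and -0.12 for dhrs9, -0.01 for ncoa2, -0.02 for rarga, 0.09 and 0.53 for rbp4, 0.03 for rdh10a, -0.06 for rxrab and 0.91 for stra6, and cyp26c1 reached -0.63 in a fit that gave it no adjusted p. The cause was not tested. Depth limits cyp26c1, rargb, rbp4l and rdh5, which had at most 32 reads in any library.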
